A study of Mus musculus with 80 samples.

Results

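Glutathione S-transferase genes were followed in whole lungs of adult male mice. Of 10 genes chosen by name (Gsta3, Gsta4, Gstm1, Gstm2, Gstm5, Gstp1, Gstt1, Gstt2, Gsto1 and Mgst1), 9 had a probe set carrying that symbol alone, and the brightest such probe set on average over the 80 arrays was used. Gsta3 had 0 such probe sets in the annotation used here and was not analysed. The 9 measured genes were among 17097 genes with a probe set and among the 11406 tested, and all 9 lay above the level minimum of 4.28 (log2) in 80 of 80 arrays. There were 4 kinds of mice: WT, KO and TG were all C57Bl/6, with KO labelled as CYP2F2 knockout and TG as CYP2F1 humanized, and CD-1 came from an outbred stock. Each inhaled air (0 ppm) or styrene at 10, 40 or 120 ppm once for 6 h, and the lungs were removed on the following morning. With 5 mice in each of the 16 groups, the design asks how the response to styrene depends on dose and on the CYP2F enzymes. The labels do not say whether TG mice keep mouse Cyp2f2, nor which promoter drives the human gene.

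Glutathione transferases join the thiol of glutathione to electrophiles, and styrene oxide, which cytochrome P450 enzymes such as Cyp2f2 make from styrene, is one of their substrates. The cytosolic enzymes fall into classes named alpha (Gsta), mu (Gstm), pi (Gstp), theta (Gstt) and omega (Gsto), while Mgst1 is a membrane enzyme of a separate family. In the lung, club cells of the bronchioles hold much of the Cyp2f2, and many transferase genes are known targets of NRF2, a transcription factor activated by electrophiles.

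The promoter windows shown are of 4 of the members that changed in WT lungs: Gstm1, Gstm2 and Mgst1, which fell, and Gstp1, which rose. Windows are from RefSeq (GRCm38.p6) and run from 250 bases before to 50 bases after the start, 5′ to 3′ on the gene's strand. They are chr3:108017769-108018068 on the minus strand for Gstm1, chr3:107986371-107986670 on the minus strand for Gstm2, chr19:4037863-4038162 on the minus strand for Gstp1 and chr6:138140277-138140576 on the plus strand for Mgst1. Capitals mark matches, on either strand, to TGACNNNGC, the core of the antioxidant response element that NRF2 binds, or to GCGTG, the core of the xenobiotic response element.
Gstm1: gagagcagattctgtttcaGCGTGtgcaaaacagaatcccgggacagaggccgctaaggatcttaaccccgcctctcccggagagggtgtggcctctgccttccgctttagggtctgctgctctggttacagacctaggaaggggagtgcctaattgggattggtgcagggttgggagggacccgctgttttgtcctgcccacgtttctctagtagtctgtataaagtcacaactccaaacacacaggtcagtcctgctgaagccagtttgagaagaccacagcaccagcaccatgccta
Gstm2: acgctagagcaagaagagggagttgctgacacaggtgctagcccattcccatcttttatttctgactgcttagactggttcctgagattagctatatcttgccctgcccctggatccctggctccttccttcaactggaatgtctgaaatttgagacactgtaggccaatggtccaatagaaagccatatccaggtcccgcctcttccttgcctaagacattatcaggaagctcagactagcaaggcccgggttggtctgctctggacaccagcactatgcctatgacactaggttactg
Gstp1: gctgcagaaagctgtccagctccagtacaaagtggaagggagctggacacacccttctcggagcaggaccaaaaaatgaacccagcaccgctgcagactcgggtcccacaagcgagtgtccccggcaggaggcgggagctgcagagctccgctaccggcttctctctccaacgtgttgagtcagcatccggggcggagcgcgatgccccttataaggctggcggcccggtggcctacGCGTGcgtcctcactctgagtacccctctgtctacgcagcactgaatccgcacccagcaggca
Mgst1: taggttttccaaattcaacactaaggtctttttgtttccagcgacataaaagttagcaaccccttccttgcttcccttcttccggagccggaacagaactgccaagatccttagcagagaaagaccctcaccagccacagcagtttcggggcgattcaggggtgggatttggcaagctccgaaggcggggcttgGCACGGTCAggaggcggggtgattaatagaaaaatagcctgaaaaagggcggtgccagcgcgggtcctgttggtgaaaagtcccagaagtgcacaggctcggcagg
Of the 10 genes, 8 had a window (10 windows in all), and Gsta4 and Gstt2 had no entry. TGACNNNGC occurred in 3 of the 10 windows, 1 each of Gsta3, Gstm5 and Mgst1, and in 12.4% of 32851 windows of the same length. GCGTG occurred in 4 of the 10, both overlapping Gstm1 windows and those of Gstp1 and Gstm5, and in 32.4% of all windows. The windows of Gstt1 and Gsto1, which also changed in WT, and a second Mgst1 window held 0 matches to either motif and are not printed. No match to one motif overlapped a match to the other in the windows printed. Such matches describe letters and are not binding sites.

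Values are log2 signal as deposited, and a difference of 1 is a doubling. The array medians of WT lay at 4.53 to 4.60, those of CD-1 at 4.24 to 4.30, those of KO at 4.09 to 4.20 and those of TG at 3.84 to 4.14, so doses were compared within a strain. Arrays of a group correlated at 0.978 to 0.997. A squamous epithelium marker list averaged 8.79 on WT 0 ppm replicate 1, 8.49 on WT 40 ppm replicate 3 and 7.50 on CD-1 0 ppm replicate 4, against at most 5.15 on the others, and TG 0 ppm replicate 4 had the lowest array median (3.84, others at least 4.07). Member results on the deposited scale whose call these 4 arrays move are given with and without them. Shares of all genes and counts of gene lists use all arrays unless stated. Without these 4 arrays, the genes passing the test used below numbered 2375 in WT at 40 ppm, against 2970 with them. For the mean of the doses in TG they numbered 1, against 12. Cyp2f2 itself ran from 13.19 to 13.27 in WT air and 11.57 to 11.81 in KO air, 11.48 to 11.89 in TG air and 12.90 to 13.14 in CD-1 air, each on the scale of its own strain's arrays.

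In WT lungs styrene was followed by lower Gstm1, Gstm2, Gstt1 and Mgst1 and by higher Gstp1 and Gsto1. Averaged over the 3 doses, 6 of 9 members passed the test (limma, Benjamini-Hochberg adjusted p under 0.05 over all 11406 genes), 4 lower and 2 higher, where 29.6% of all genes passed, 13.3% lower and 16.3% higher. At 10, 40 and 120 ppm 4, 5 and 5 members passed, against 12.6%, 26% and 23.9% of all genes. The exposed and air arrays did not overlap for 3, 4 and 5 members, against 10.2%, 18.3% and 19.9% of genes. The median change of the 9 members was -0.15, -0.23 and -0.16 at the 3 doses, and that of all genes was between -0.0064 and 0.015. In these whole-lung samples fewer cells of a type and less RNA per cell cannot be told apart.

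**Figure D1:**
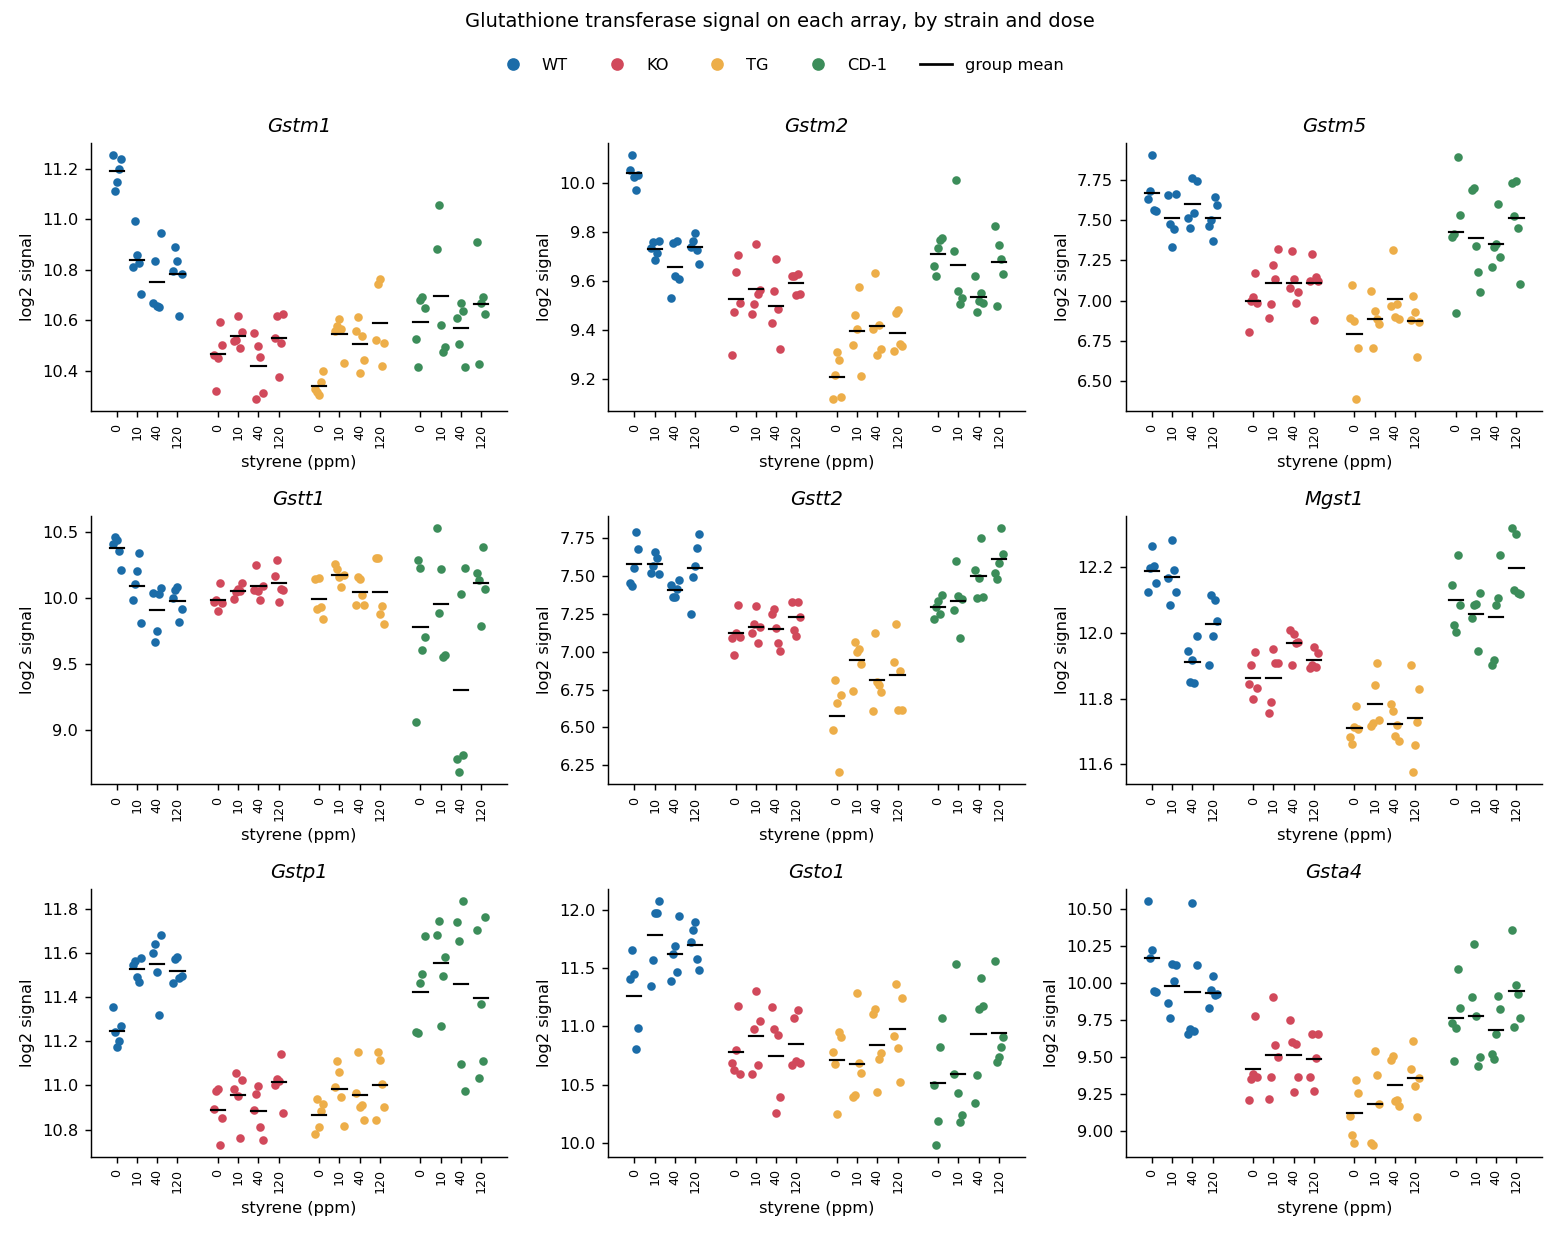
Log2 signal of the 9 members on each of the 80 arrays, grouped by strain (colour) and styrene dose in ppm (x axis), with black lines at the group means of 5 arrays. In WT (blue) all Gstm1 and Gstm2 values under styrene lie below all 5 air values, and the CD-1 (green) Gstt1 values spread from 8.68 to 10.53.

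Gstm1, a mu class enzyme, read 11.25, 11.11, 11.15, 11.20 and 11.24 on the 5 WT air arrays. It read 10.81, 10.99, 10.86, 10.83 and 10.70 at 10 ppm, 10.67, 10.84, 10.66, 10.65 and 10.95 at 40 ppm and 10.80, 10.89, 10.83, 10.62 and 10.79 at 120 ppm. Every exposed WT array lay below every air array. The log2 change was -0.35 ± 0.067 (SE, n = 5 per group; adjusted p = 0.0016) at 10 ppm, where the level fell by 21.6%. It was -0.44 at 40 ppm (adjusted p = 0.00013) and -0.41 at 120 ppm (adjusted p = 0.00029). Neither of these differed from the 10 ppm level past the threshold. The chosen probe set (1416416_PM_x_at) is of a kind that can bind related transcripts. Of the 3 other Gstm1 probe sets, 1448330_PM_at gave a mean change over doses of -0.41 (adjusted p = 4.7e-05) and 1425627_PM_x_at gave -0.27 (adjusted p = 0.0046). The dim 1425626_PM_at, above the level minimum in 18 of 80 arrays, gave -0.19 (adjusted p = 0.085).

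Gstm2, the next gene on chromosome 3 and also of the mu class, read 10.05, 10.11, 10.03, 9.97 and 10.03 in WT air. Under styrene it read 9.73, 9.76, 9.68, 9.71 and 9.76 at 10 ppm, 9.53, 9.75, 9.62, 9.76 and 9.61 at 40 ppm and 9.74, 9.76, 9.80, 9.73 and 9.67 at 120 ppm. Again no exposed array reached the lowest air array. It fell by 19.2% at 10 ppm, fell by 23.3% at 40 ppm and fell by 18.7% at 120 ppm, with log2 changes of -0.31 ± 0.048, -0.38 and -0.30 (adjusted p = 0.00021, 1.6e-05 and 0.00022). Gstm5, another mu gene in the same cluster, ranged from 7.56 to 7.91 in air and 7.37 to 7.64 at 120 ppm, and none of its changes passed. Its mean change over doses was -0.12 ± 0.068 (95% interval -0.27 to 0.018) with adjusted p = 0.18.

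Gstt1, a theta class enzyme, read 10.40, 10.46, 10.44, 10.35 and 10.21 in WT air. It read 9.98, 10.11, 10.20, 10.33 and 9.81 at 10 ppm, overlapping air, 10.04, 9.67, 9.74, 10.03 and 10.07 at 40 ppm and 10.00, 10.06, 10.08, 9.82 and 9.91 at 120 ppm. At 40 and 120 ppm all 5 arrays lay below air. The change at 10 ppm, -0.29 ± 0.096, had an adjusted p of 0.054, and those at 40 and 120 ppm were -0.46 ± 0.096 (adjusted p = 0.0016) and -0.40 (adjusted p = 0.0054). In 1 fit of all 80 arrays the 120 ppm change did not pass (adjusted p = 0.11). Without WT 0 ppm replicate 5, WT 10 ppm replicate 3 or WT 10 ppm replicate 4 the 10 ppm change passed. The other theta member, Gstt2, ranged from 7.43 to 7.79 in air and 7.36 to 7.47 at 40 ppm, and its mean change over doses was -0.068 ± 0.068 (95% interval -0.21 to 0.073), which did not pass (adjusted p = 0.48).

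Mgst1, the microsomal enzyme, which also reduces lipid hydroperoxides, read 12.13, 12.20, 12.27, 12.20 and 12.15 in WT air. Its values at 10 ppm, 12.17, 12.09, 12.28, 12.19 and 12.13, covered the same range. At 40 ppm it read 11.95, 11.85, 11.92, 11.85 and 11.99 and at 120 ppm 11.90, 12.11, 11.99, 12.10 and 12.04, and both groups lay below all air arrays. It fell by 17.5% at 40 ppm (-0.28 ± 0.051, adjusted p = 0.00069) and by 10.6% at 120 ppm (-0.16 ± 0.051, adjusted p = 0.029). The 120 ppm call was lost when air replicate 2, 3 or 4, or 120 ppm replicate 1 or 3, was omitted (up to 0.087). Among the members, only Mgst1 differed between 2 styrene doses in WT: 40 minus 10 ppm was -0.26 ± 0.051 (adjusted p = 0.014), where 0.947% of all genes passed. For 120 minus 10 ppm 0.903% of genes passed, and for 120 minus 40 ppm 0 did.

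Gstp1, the pi class enzyme, moved the other way. It read 11.36, 11.24, 11.17, 11.20 and 11.27 in WT air and 11.55, 11.57, 11.49, 11.47 and 11.58 at 10 ppm. At 40 ppm it read 11.60, 11.64, 11.51, 11.32 and 11.68, with replicate 4 inside the air range, and at 120 ppm 11.47, 11.57, 11.58, 11.49 and 11.49. The other exposed arrays all lay above air. It rose by 21.6% at 10 ppm (0.28 ± 0.060, adjusted p = 0.0038), 23.4% at 40 ppm (adjusted p = 0.0012) and 20.8% at 120 ppm (adjusted p = 0.0029). The fitted log2 change ran from 0.27 to 0.30 over the 3 doses, and none of the doses passed against another. In 1 fit of all 80 arrays the 10 ppm (adjusted p = 0.083) and 120 ppm (0.065) changes did not pass.

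Gsto1, an omega class enzyme that reduces dehydroascorbate, was more scattered. It read 11.41, 11.66, 11.45, 10.81 and 10.98 in WT air, 11.35, 11.56, 11.97, 11.97 and 12.08 at 10 ppm, 11.39, 11.62, 11.69, 11.47 and 11.94 at 40 ppm and 11.73, 11.82, 11.89, 11.58 and 11.48 at 120 ppm. Exposed and air arrays overlapped at every dose. The mean change over doses was 0.44 ± 0.13 (adjusted p = 0.015), and the change at 10 ppm was 0.53 ± 0.16 (adjusted p = 0.036). At 40 and 120 ppm the adjusted p was 0.10 and 0.052. The 10 ppm call was lost when air replicate 4 or 5, or 10 ppm replicate 3, 4 or 5, was omitted (up to 0.11). The call for the mean was lost without WT 0 ppm replicate 4 (0.072) or replicate 5 (0.062). The 120 ppm change passed without WT 0 ppm replicate 2 or WT 120 ppm replicate 5, and the 40 ppm change without WT 0 ppm replicate 2. A second Gsto1 probe set (1456036_PM_x_at) gave 0.42 for the mean (adjusted p = 0.0082). In 1 fit of all 80 arrays neither the 10 ppm change (adjusted p = 0.11) nor the mean (0.054) passed.

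Gsta4, an alpha class enzyme with high activity toward the lipid aldehyde 4-hydroxynonenal, did not pass at any WT dose. It read 10.56, 10.17, 10.23, 9.95 and 9.94 in air and 9.66, 9.69, 10.54, 9.68 and 10.12 at 40 ppm. The highest array of each group, replicate 1 in air and replicate 3 at 40 ppm, was the one with the high squamous marker level. The 40 ppm change was -0.23 ± 0.15 (adjusted p = 0.26) with all arrays, -0.28 (adjusted p = 0.067) without both, and -0.38 (adjusted p = 0.028) without WT 40 ppm replicate 3 alone. That single omission also took the mean over doses past the threshold (-0.27, adjusted p = 0.036). The part of squamous tissue in the Gsta4 values was not tested.

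**Figure D2:**
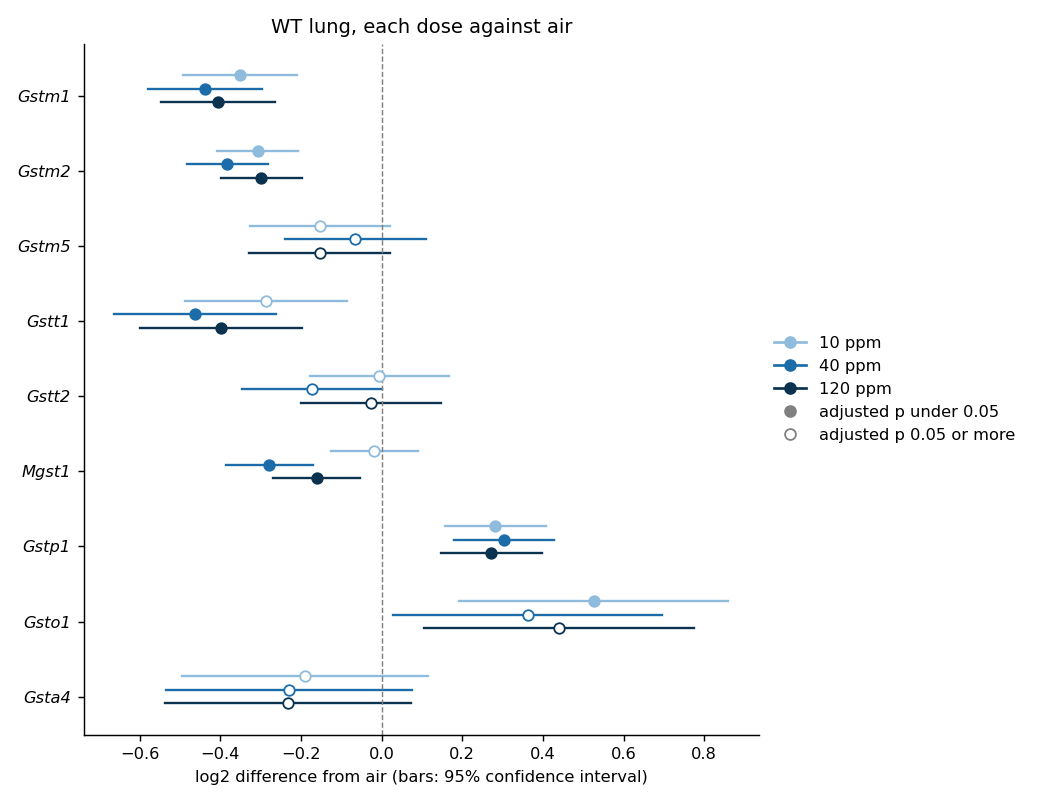
Log2 difference from air of the 9 members in WT lungs at 10, 40 and 120 ppm (x axis), with bars for 95% confidence intervals and filled points where the adjusted p was under 0.05. Gstm1 changed by -0.35, -0.44 and -0.41, while Mgst1 stood at -0.018 at 10 ppm and -0.28 at 40 ppm.

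Transferase genes outside the 10 were also split in WT. Of 21 listed, 13 were on the array and 11 were tested; averaged over doses 2 rose and 4 fell, where 16.3% of all genes rose and 13.3% fell. Ptges, a prostaglandin E synthase of the membrane family, rose by 1.17 ± 0.14 (adjusted p = 6.3e-06), and the kappa gene Gstk1 changed by -0.45 ± 0.062 (adjusted p = 2.7e-05). Gstt3, which lies beside Gstt1 on chromosome 10, changed by -0.26 ± 0.057 (adjusted p = 0.0019), and Mgst2 by -0.43 ± 0.13 (adjusted p = 0.018). Mgst3 was the second that rose (0.18 ± 0.061, adjusted p = 0.03). In the mu cluster, whose order in RefSeq is Gstm5, Gstm7, Gstm6, Gstm3, Gstm2, Gstm1 and Gstm4, the change was -0.25 for Gstm6 (adjusted p = 0.047) and -0.17 for Gstm7 (adjusted p = 0.18). For Gstm4, on the far side of Gstm1, it was 0.046 (adjusted p = 0.63). Mgst3, Gstm4, Gstm6 and Gstm7, and Slc48a1 and Sult1d1 of other lists, were named after their values were seen. How far the probes of these close relatives respond to one another was not tested.

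Among the genes that make and recycle glutathione, the co-substrate of the transferases, rises prevailed in WT: of 15 tested, 6, 7 and 7 were higher at 10, 40 and 120 ppm and 0 lower, where 7.67%, 13.7% and 14.3% of all genes were higher. Averaged over doses 8 were higher, where 16.3% of all genes were, among them Lap3, an aminopeptidase (0.67 ± 0.069, adjusted p = 7.5e-07), Gclc, the catalytic subunit of the rate-limiting synthesis enzyme (0.63 ± 0.067, adjusted p = 1.2e-06), and Gsr, glutathione reductase (0.50 ± 0.066, adjusted p = 1.8e-05). The list's median change was 0.25, against 0.0011 over all genes. This list and those below were chosen with earlier results of these data known, so their shares are descriptions. Of 18 NRF2 regulators and other targets 9 rose and 1 fell (Slc48a1, -0.15 ± 0.047, adjusted p = 0.025), with Nqo1 at 1.04 ± 0.086 (adjusted p = 4.8e-08) and Hmox1 at 1.52 ± 0.16 (adjusted p = 1.2e-06), and the list's median was 0.17. Of 10 peroxidases and glutaredoxins 2 rose, a share near that of all genes (16.3%): Gpx2, a selenium peroxidase (0.73 ± 0.14, adjusted p = 0.00052), and Glrx (0.31 ± 0.11, adjusted p = 0.037). Kyat1 alone of 6 export and mercapturate genes passed, and it was lower (-0.52 ± 0.16, adjusted p = 0.019). This share is near that of all genes, of which 13.3% were lower.

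Of 9 genes of styrene oxidation and epoxide hydrolysis 4 were lower and 0 higher in WT over the mean of the doses, where 13.3% of all genes were lower. Ephx1, which hydrolyses styrene oxide, changed by -0.48 ± 0.061 (adjusted p = 1.2e-05), Cyp2f2 by -0.67 ± 0.066 (adjusted p = 4.3e-07), Cyp1a1 by -2.47 ± 0.33 (adjusted p = 1.8e-05) and Cyp2b10 by -0.18 ± 0.054 (adjusted p = 0.019). Of 7 targets of the xenobiotic receptors CAR and PXR 5 were lower, namely Cyp2b10, Aldh1a7 (-0.54 ± 0.054, adjusted p = 5.6e-07), Aldh1a1 (-0.41 ± 0.062, adjusted p = 8.6e-05), Alas1 (-0.40 ± 0.071, adjusted p = 0.00033) and Sult1d1 (-1.58 ± 0.50, adjusted p = 0.023). In KO, TG and CD-1 0 genes of these pathway lists passed for the mean of the doses. The lists overlap: Cyp2b10 is counted in both lists of this paragraph. Cyp2f2, Cyp4b1 and Aldh1a7 are also counted among the club cell markers.

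Club cell markers were lower in the same WT lungs, and so were some of the ciliated cell markers. Of 12 club markers 7, 11 and 9 were lower at 10, 40 and 120 ppm, and 0 were higher, where 4.9%, 12.4% and 9.65% of all genes were lower. Their mean level ran from 11.78 to 11.85 in air, 11.28 to 11.55 at 10 ppm, 10.87 to 11.26 at 40 ppm and 11.05 to 11.26 at 120 ppm. Averaged over doses, Aox3 changed by -1.06 ± 0.072 (adjusted p = 3.6e-09) and Ces1d by -0.65 ± 0.065 (adjusted p = 5.0e-07). Scgb1a1, the main secretory product of club cells, is counted in the list but read 13.65 to 13.85 on all WT arrays, near the highest value of the table (13.9), and no change is given for it. Of 10 ciliated cell markers 1, 2 and 3 were lower and 0 higher, against the same 4.9%, 12.4% and 9.65% of all genes that were lower. Their mean level ran from 8.26 to 8.60 in WT air, 7.88 to 8.53 at 10 ppm, 7.84 to 8.58 at 40 ppm and 7.80 to 8.21 at 120 ppm, and only the last did not overlap air. In CD-1 1 of the 12 club markers passed for the mean of the doses, Pon1 (-1.03 ± 0.15, adjusted p = 0.02). It was the only 1 of all 11406 genes to do so (0.00877%). Without CD-1 0 ppm replicate 4, an array that stood apart, 0 genes passed. The club list averaged 11.52 to 11.74 in CD-1 air and 11.07 to 11.66 under styrene. It averaged 11.29 to 11.55 over all KO arrays and 11.15 to 11.47 over all TG arrays. The 10 alveolar type 2 markers averaged 11.60 to 11.74 on all WT arrays. The part of club and ciliated cells in the transferase changes was not tested.

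In KO, TG and CD-1 lungs 0 of 9 members passed at any dose or for the mean of the doses (limma). Over all genes, 0% passed in KO. In TG 0% passed at 10 and 40 ppm, 0.0701% at 120 ppm and 0.105% for the mean, and in CD-1 0%, 0.00877% and 0.0175% at the 3 doses and 0.00877% for the mean. At an unadjusted p under 0.05 (limma), for the mean of the doses, there were 3 members for TG, 1 for CD-1 and 0 for KO. Of all 11406 genes, 1625 in TG, 367 in CD-1 and 644 in KO had such a p. The fitted mean changes in KO ran from 0.027 to 0.11, with 95% intervals between -0.23 and 0.35, and in TG from 0.040 to 0.29 (intervals between -0.20 and 0.50). In CD-1 they ran from -0.085 to 0.31, with intervals between -0.49 and 0.76.

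Gstm1 on the KO arrays read 10.46, 10.32, 10.45, 10.59 and 10.50 in air and 10.53, 10.62, 10.38, 10.51 and 10.63 at 120 ppm. These ranges overlapped, and the mean change over doses was 0.032 ± 0.053 (95% interval -0.079 to 0.14). On the TG arrays it read 10.33, 10.32, 10.30, 10.36 and 10.40 in air, 10.56, 10.58, 10.60, 10.57 and 10.43 at 10 ppm, 10.56, 10.61, 10.39, 10.54 and 10.44 at 40 ppm and 10.52, 10.74, 10.76, 10.42 and 10.51 at 120 ppm. The 10 and 120 ppm arrays all lay above air, and 1 array at 40 ppm overlapped it. The TG mean change, 0.21 ± 0.058, had an adjusted p of 0.15, and it was 0.21 (adjusted p = 0.23) without TG 0 ppm replicate 4, the array of lowest median. Gstm2 in TG stood at 0.19 ± 0.063 (adjusted p = 0.21) and Gstt2 at 0.29 ± 0.10 (adjusted p = 0.22), where the median of all genes was 0.057. In a single fit of all 80 arrays Gstt2 passed in TG at 10 ppm and for the mean.

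**Figure D3:**
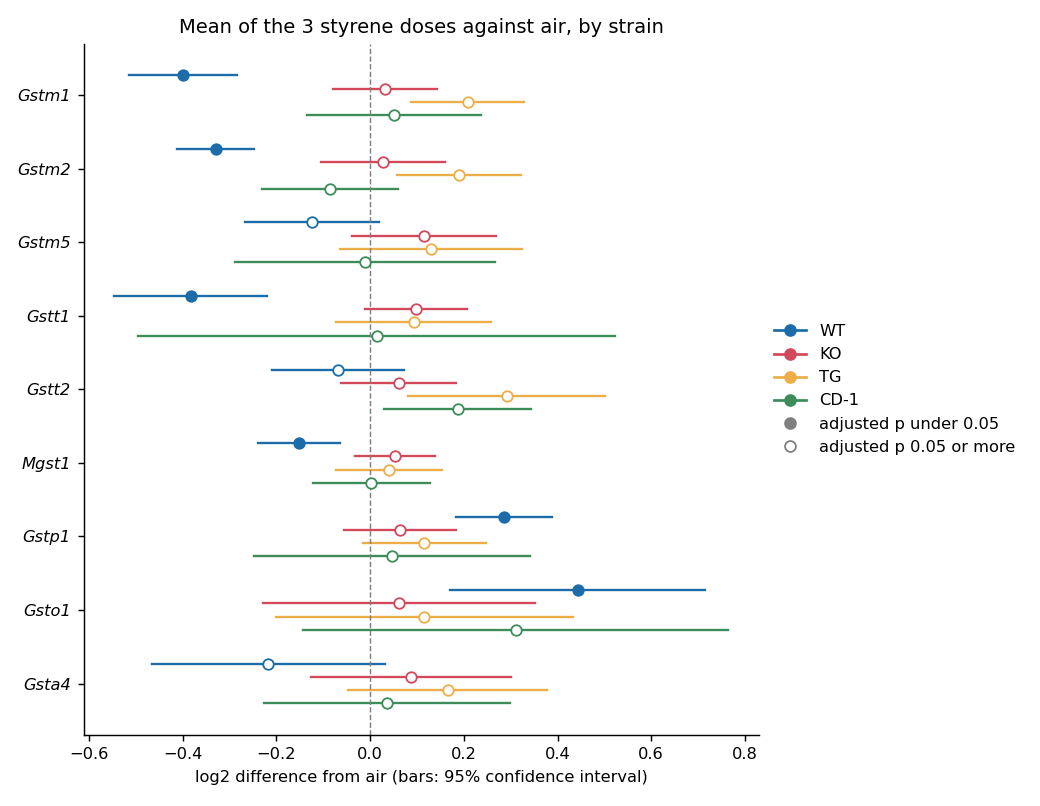
Log2 difference from air for the mean of the 3 styrene doses (x axis) in WT, KO, TG and CD-1, for each member, with 95% confidence intervals and filled points where the adjusted p was under 0.05. The WT value of Gstm1 is -0.40, that of TG is 0.21, and KO (0.032) and CD-1 (0.051) lie near 0, and 6 members are filled in WT and 0 in the other strains.

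The difference in response between WT and KO was tested directly. For the mean of the 3 doses 5 of 9 members passed, against 17.2% of all genes. The WT change minus the KO change was -0.43 ± 0.075 for Gstm1 (adjusted p = 7.2e-05), -0.48 ± 0.094 for Gstt1 (adjusted p = 0.00035) and -0.36 ± 0.073 for Gstm2 (adjusted p = 0.00063). It was -0.21 ± 0.054 for Mgst1 (adjusted p = 0.0068) and, in the other direction, 0.22 ± 0.073 for Gstp1 (adjusted p = 0.031). The Gstp1 call was lost when KO air replicate 1, 2 or 3, or WT air replicate 2, 3 or 4, was omitted (up to 0.075). In 1 fit of all 80 arrays the Gstp1 (adjusted p = 0.26) and Gstt1 (0.11) differences did not pass. Gsto1 differed by 0.38 ± 0.20 (95% interval -0.023 to 0.78) and did not pass (adjusted p = 0.19). At 10, 40 and 120 ppm singly, 2, 5 and 4 members passed, against 7.59%, 13.9% and 11.4% of genes.

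Against TG, 5 members passed, all with the more negative change in WT, where 14% of genes passed. The differences were -0.61 ± 0.077 for Gstm1 (adjusted p = 4.9e-07), -0.52 ± 0.071 for Gstm2 (adjusted p = 1.8e-06) and -0.48 ± 0.11 for Gstt1 (adjusted p = 0.0032; 0.11 in 1 fit of all 80 arrays). Those of Gstt2, -0.36 ± 0.12 (adjusted p = 0.046), and Mgst1, -0.19 ± 0.064 (adjusted p = 0.037), lay near the threshold. The first of these was lost in 23 of 40 omissions of 1 array, and without the 4 arrays that stood apart (-0.30, adjusted p = 0.12), and the second was lost in 7 of 40. Omission of WT 40 ppm replicate 3 took Gsta4 past the threshold (-0.43, adjusted p = 0.036). At 10, 40 and 120 ppm singly, 3, 4 and 3 members passed against TG, where 5.51%, 10.1% and 9.75% of genes did. Against CD-1, 5.42% of genes and 1 member passed: Gstm1 at -0.45 ± 0.10 (adjusted p = 0.0085). Gstm2 differed by -0.24 ± 0.078 (adjusted p = 0.057, passing in 6 of 40 omissions), and the interval for Gsto1 ran from -0.40 to 0.66. By dose 0, 0 and 1 members passed against CD-1 (limma), where 1.89%, 1.61% and 4.37% of genes did. At an unadjusted p under 0.05 there were 2, 4 and 5 members, and 1513, 1923 and 2109 of the 11406 genes. Between TG and KO 0 members passed for the mean (limma), where 0.0526% of genes did. At an unadjusted p under 0.05 there were 1 member and 1263 of the 11406 genes. At each dose 0 members passed too, where 0.0175%, 0% and 0% of genes did. There 1, 2 and 0 members had an unadjusted p under 0.05, as did 1148, 902 and 1190 of the 11406 genes.

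Most members varied more among CD-1 mice than in the other strains, and relative to WT Gstt1 and Gstp1 did so most. The pooled standard deviation within dose groups was 0.51 for Gstt1 among CD-1 mice, where WT had 0.16, KO 0.091 and TG 0.15. For Gstp1 it was 0.29, 0.088, 0.10 and 0.11 in the same order, and for Gsto1 0.46, 0.27, 0.30 and 0.32. Gstt2 was an exception, with 0.14 in CD-1 and 0.20 in TG. Gsta4 was nearly equal in CD-1 (0.26) and WT (0.25). Over all genes tested the median was 0.17 in CD-1, 0.13 in WT, 0.14 in KO and 0.18 in TG. The CD-1 value of Gstt1 stood at percentile 96.6 of all genes, that of Gstm2 at 25.5 and that of Mgst1 at 11.6. These are descriptions with no test.

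Gstt1 in CD-1 read 9.06, 10.28, 10.23, 9.60 and 9.70 in air, 10.53, 9.89, 10.21, 9.55 and 9.57 at 10 ppm, 8.78, 8.68, 10.03, 8.81 and 10.22 at 40 ppm and 10.19, 10.13, 9.78, 10.38 and 10.07 at 120 ppm, in the order of replicates 1 to 5. At 40 ppm replicates 1, 2 and 4 lay below every other array of the study, and the remaining pair at 10.03 and 10.22. Its neighbour Gstt3 on the same 40 ppm arrays read 8.12, 8.11, 7.63, 8.28 and 7.67, and Gstp1 read 11.74, 11.66, 11.10, 11.84 and 10.98. Replicates 1, 2 and 4, low in Gstt1, were the higher 3 in both of the other genes at this dose. At 10 ppm the pattern was absent: replicates 4 and 5, lowest in Gstt1, were not the highest in Gstt3 (7.69, 8.29, 7.84, 7.76 and 7.85) or Gstp1 (11.68, 11.75, 11.27, 11.50 and 11.58). In air the array lowest in Gstt1, replicate 1 at 9.06, was highest in Gstt3, which read 8.18, 7.78, 7.60, 7.88 and 8.06, but Gstp1 read 11.24, 11.24, 11.46, 11.51 and 11.68 and was not high there. Gstt3 and Gstp1 were set beside Gstt1 after their values were seen. The 40 ppm change of Gstt1 in CD-1 was -0.47 ± 0.30 (95% interval -1.09 to 0.15) and did not pass.

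**Figure D4:**
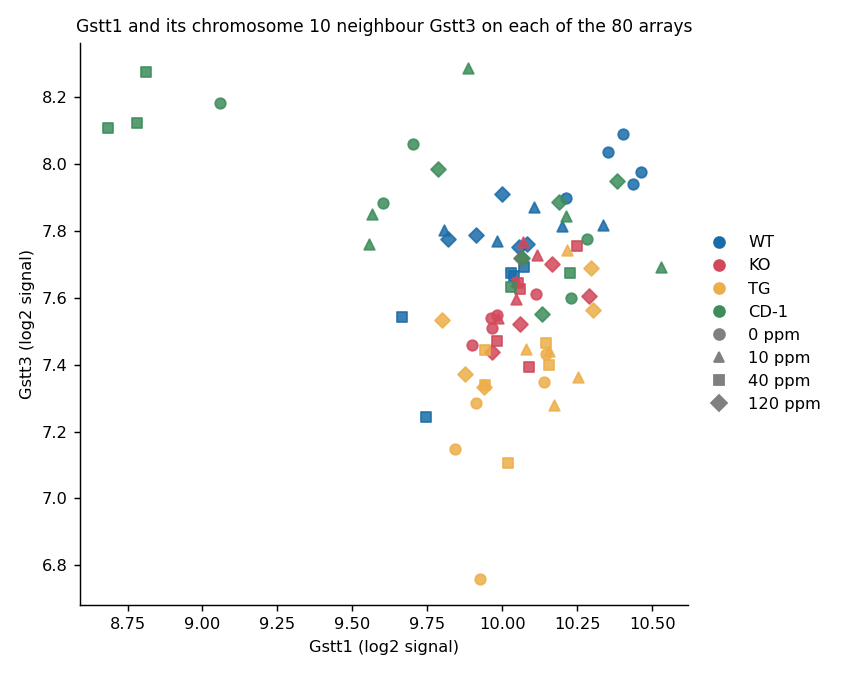
Log2 signal of Gstt1 (x axis) against Gstt3 (y axis) on each of the 80 arrays, with colour for strain and marker for styrene dose. Of the CD-1 arrays (green), 3 at 40 ppm (8.68, 8.78 and 8.81) and 1 in air (9.06) have the lowest Gstt1 of all, while the KO arrays lie close together in both genes.

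In air, all 9 members passed as lower in KO than in WT and as lower in TG than in WT on the deposited scale. Gstp1, Gstt1 and Mgst1 turned sign in both once array medians were subtracted, and none of the turned values passed. On the deposited scale 6 of 9 passed between CD-1 and WT and 3 between TG and KO. Over all genes 75%, 80.4%, 53.4% and 28.7% passed in the 4 contrasts. The median over all genes was shifted by -0.36, -0.48, -0.23 and -0.10 in these contrasts, and no source used here says whether the strains were normalized together. Strain and processing cannot be told apart. Without the 4 arrays that stood apart, Gsto1 (adjusted p = 0.061) and Gstt1 (0.057) no longer passed for KO, nor Gstt1 for TG (0.092), each against WT. Gsta4 then passed between TG and KO (-0.35, adjusted p = 0.023), and Gstm5 (-0.36, adjusted p = 0.019) and Mgst1 (-0.14, adjusted p = 0.04) between CD-1 and WT. After each array's median was subtracted, 1, 5, 3 and 1 members passed, against 13.7%, 35.7%, 35.8% and 25.7% of genes. On this scale 2 members differed between CD-1 and KO and 7 between CD-1 and TG, against 30.5% and 42.5% of genes. Mgst1, which turned to 0.035 in TG against WT, read 7.93 above the array median on TG 0 ppm replicate 4. The other TG air arrays read 7.53 to 7.64 and the WT ones 7.55 to 7.71. The fits after subtraction were not repeated without the 4 arrays that stood apart.

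Gstm1 was the only member that passed as lower than WT in all 3 other strains on that scale. Above the array median WT stood at 6.62 ± 0.045 (SD, n = 5), CD-1 at 6.33 ± 0.11, KO at 6.29 ± 0.092 and TG at 6.28 ± 0.13. The TG level includes replicate 4, the array of lowest median, at 6.51, with the other TG arrays at 6.19 to 6.28. The WT arrays (6.56 to 6.68) all lay above the 6.16 to 6.41 of KO. Relative to WT the difference was -0.33 ± 0.070 for KO (adjusted p = 0.0048), -0.33 ± 0.070 for TG (adjusted p = 0.0011) and -0.29 ± 0.070 for CD-1 (adjusted p = 0.0033), and the other 3 strains did not pass against one another.

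Gstt2 ran in the order CD-1 (3.03 ± 0.080), WT (3.01 ± 0.14), KO (2.94 ± 0.11) and TG (2.52 ± 0.15) above the array median. CD-1, WT and KO did not differ beyond their spread, and TG differed from KO by -0.42 ± 0.081 (adjusted p = 0.00099). Its TG arrays, 2.36 to 2.68, lay below all arrays of the other strains. Gstp1 was highest in CD-1 at 7.16 ± 0.19, followed by TG at 6.81 ± 0.14, KO at 6.71 ± 0.10 and WT at 6.68 ± 0.067. CD-1 exceeded TG by 0.35 ± 0.086 (adjusted p = 0.0027), and the other 3 strains did not pass against one another. Mgst1 was higher in CD-1 than in WT by 0.22 ± 0.071 after subtraction (adjusted p = 0.021), whereas before it the sign was the opposite. The members lower in TG than in WT were Gsta4 (-0.53), Gstm1, Gstm2 (-0.31), Gstm5 (-0.36) and Gstt2 (-0.49).

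**Figure D5:**
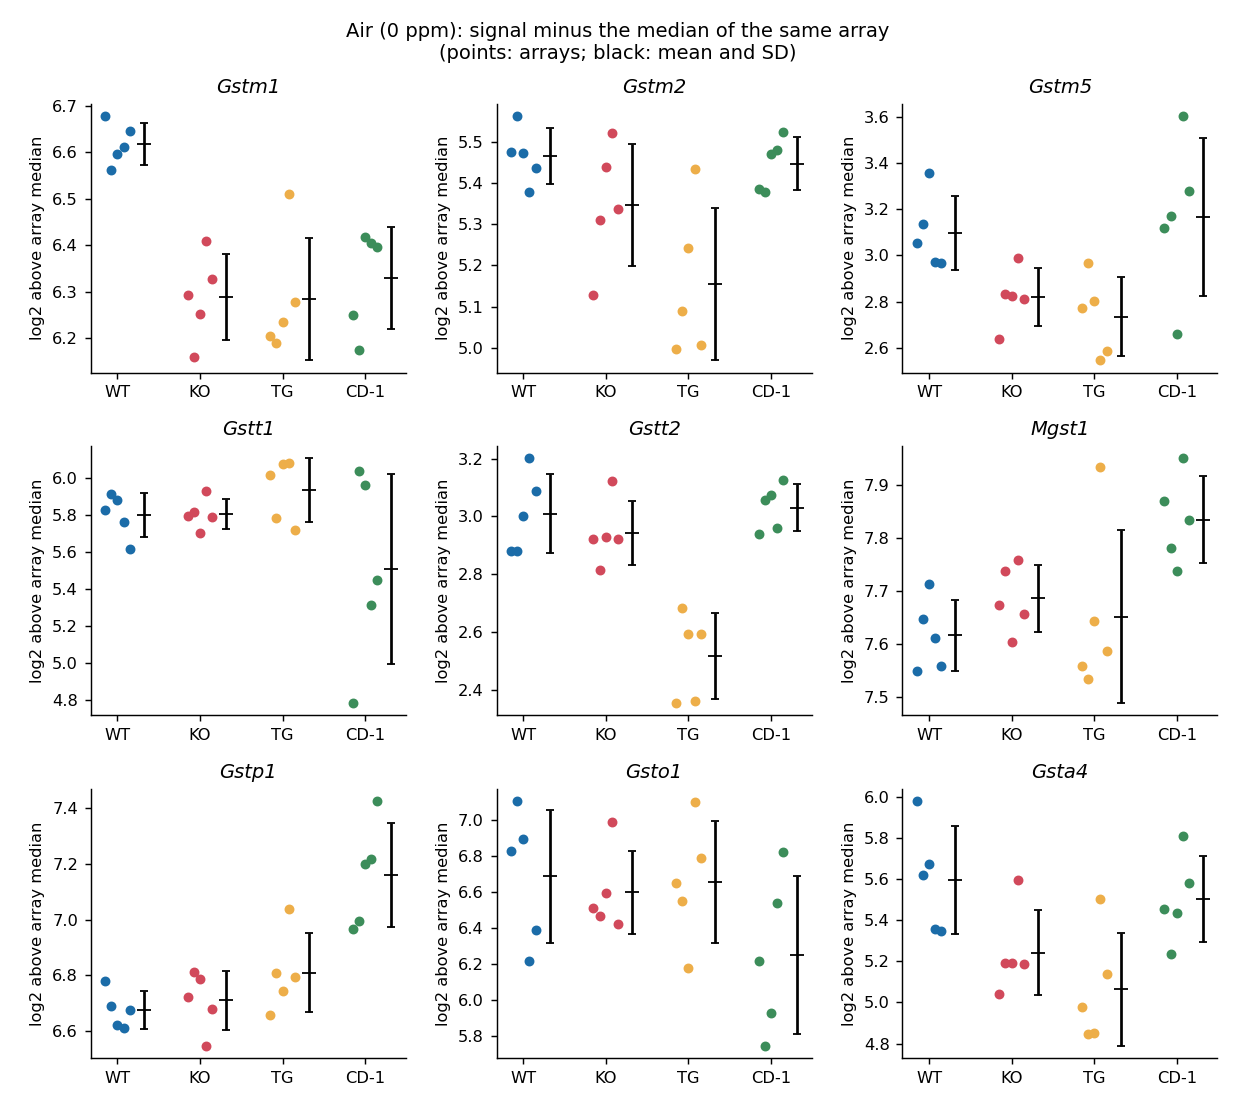
Log2 signal above the median of the same array (y axis) for each member on the 20 air arrays, by strain; coloured points are arrays and black marks show the mean and SD of 5. Gstm1 lies at 6.56 to 6.68 in WT and no higher than 6.51 elsewhere, and Gstt2 in TG lies at 2.36 to 2.68.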

How the data were processed

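Whole-lung RNA of 80 mice was labelled with a 3' kit and hybridised to Affymetrix arrays, per the labels' protocols. The deposited values are log2 signal of 45037 probe sets; the submitters' processing notes name RMA and Partek, and no source used here gives their versions. The values ran from 1.88 to 13.9. Of the probe sets, 28898 carried 1 symbol, 551 several and 15588 none in the annotation. The brightest probe set stood for each gene, and a gene was tested if above the median of the table (4.28) in at least 5 arrays.

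Each strain (20 arrays, 16 residual degrees of freedom), pairs of strains (40 arrays, 32) and the 20 air arrays entered linear models in R 4.3.3 with the package limma (3.58.1), after reading with data.table (1.17.8). P-values were adjusted by Benjamini-Hochberg over the 11406 genes with a threshold of 0.05. Intervals are 95%. The fits were tested on simulated data. Figures used matplotlib 3.10.9 in Python 3.11.15. Named genes were the members, up to 4 genes of each list with the lowest p, and the 3 genes most like each member; others are marked. Members and lists were chosen with earlier results of these data known. Replicates are separate mice per the labels, and their number limits the precision. Alternatives were no filter, array median subtraction, quantile normalization, a trend with robust variance, 1 fit of all arrays, a replicate block, leaving out single arrays and, added after the data were seen, leaving out the 4 arrays that stood apart and comparing CD-1 with KO and TG in air.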

Additional observations from a re-analysis of the deposited data

Results flagged for a closer look

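Of 144 groups of 5 arrays, 3 (2.08%) held an array farther from the rest than Dixon's critical value of 0.71, where chance gives about 7.2. Gstm1 on TG 10 ppm replicate 5 read 10.43, with the others at 10.56 to 10.60. Gstm5 on TG 40 ppm replicate 2 read 7.32, with the others at 6.88 to 6.98. Gsto1 on CD-1 120 ppm replicate 1 read 11.56, with the others at 10.70 to 10.90.

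The response to styrene, averaged over doses, differed between WT and another strain by limma's test of the difference for 11 pairs of gene and strain. Against KO these were Gstm1 (-0.43), Gstm2 (-0.36), Gstp1 (0.22), Gstt1 (-0.48) and Mgst1 (-0.21). Against TG they were Gstm1 (-0.61), Gstm2 (-0.52), Gstt1 (-0.48), Gstt2 (-0.36) and Mgst1 (-0.19), and against CD-1 Gstm1 (-0.45).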

How the results depend on the processing

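With the array median subtracted, 1 member passed in air for KO minus WT and 5 for TG minus WT. There were 3 for CD-1 minus WT and 1 for TG minus KO. For the difference in response 4 passed between WT and KO and 3 between WT and TG. Quantile normalization gave 1 for KO minus WT, 6 for TG minus WT, 3 for CD-1 minus WT, 2 for TG minus KO, 3 for the WT and TG responses, 2 for the WT and CD-1 responses, 5 in WT at 10 ppm and 4 at 120 ppm. In 1 fit of all 80 arrays 2 members passed in WT at 10 ppm (without Gsto1 and Gstp1), 3 at 120 ppm (without Gstp1 and Gstt1), 5 for the WT mean (without Gsto1), 3 for the WT and KO responses (without Gstp1 and Gstt1), 4 for the WT and TG responses (without Gstt1) and 1 each in TG at 10 ppm and for the TG mean. A trend with robust variance gave 2 for the WT and CD-1 responses, 5 in WT at 10 ppm and 7 in air for CD-1 minus WT. No filter gave 3 for the WT and TG responses. After subtraction the sign in air turned for Gstp1 in KO (0.034) and TG (0.13), Gstt1 in KO (0.0066) and TG (0.14; 0.035 after quantile normalization), Gstt2 in CD-1 (0.021) and Mgst1 in KO (0.070), TG (0.035) and CD-1 (0.22), each against WT. Gstm5 in CD-1 against WT also turned, from -0.24 to 0.070, and passed on neither scale. Causes other than the scaling itself were not tested. Leaving out 1 array gave 3 to 5 members for the WT and TG responses and 1 to 2 for the WT and CD-1 responses, and changed the call of 22 of 207 single results at least once; Gstm1 kept its WT dose calls throughout. Same-numbered replicates did not deviate together (mean correlation -0.001 in WT), and with a replicate block 5 members passed in WT at 120 ppm, as without it, and 207 of 207 single results kept their call. Without the 4 arrays that stood apart 200 of 207 kept it.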

Other observations

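The genes most like each member were taken by Pearson correlation over the 80 arrays after strain means were subtracted. Arrays share dose and strain, so the coefficients are descriptions with no test. Nearest to Gstm1 were Gstm2 (0.75), Ces1d (0.71) and Elapor1 (0.68), and to Gstm2 Gstm1 (0.75), Dcxr (0.70) and Tst (0.66). Nearest to Gstt1 were Maob (0.59), Vamp5 (0.56) and Aldh1a7 (0.55), and to Mgst1 Aldh1a7 (0.69), Cetn2 (0.68) and 1110032A03Rik (0.68), so that Aldh1a7, a club cell aldehyde dehydrogenase, appeared for both. Nearest to Gstp1 were Dpp3 (0.58), Procr (0.56) and Eif3d (0.56). Nearest to Gsta4 were Adh7 (0.81), Aldh3a1 (0.79) and Aqp3 (0.77), and to Gsto1 A2ml1 (0.85), Aoc1 (0.84) and Cxcl17 (0.83). Nearest to Gstt2 were Antkmt (0.76), Commd5 (0.70) and Ndufaf3 (0.67), and to Gstm5 Bola3 (0.62), Mrpl48 (0.62) and Ndufs6 (0.61).

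Aldh1a7 read 11.09, 11.25, 11.09, 10.98 and 10.93 in WT air and 10.41, 10.23, 10.24, 10.34 and 10.42 at 40 ppm. Adh7, an alcohol dehydrogenase of squamous and stratified epithelium, read 8.73, 8.16, 7.95, 6.83 and 7.27 in WT air and 6.23, 6.76, 8.71, 6.76 and 8.47 at 40 ppm, highest in replicate 1 of the first group and replicate 3 of the second, as Gsta4 was.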
